A study of Aedes albopictus with 6 samples.

Results

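Translation factors and tRNA ligases were measured in the ovaries of Aedes albopictus, the Asian tiger mosquito. They were taken as every row with values whose deposited gene description names a eukaryotic initiation factor, elongation factor 1 or 2, a eukaryotic peptide chain release factor, a polyadenylate-binding protein, a tRNA ligase or a tRNA synthetase. That rule matched 163 rows, of which 14 were blank in all 6 libraries, leaving 149 genes of the 23529 with values. The study compared ovaries with overexpression of the piRNA Aalpi18529 (3 libraries), given as mimics after a blood meal per the series' design text, with control ovaries (3 libraries, titled NC). Libraries were made from total ovary RNA. Ovaries hold nurse cells, oocytes, follicle cells and the muscular sheath, and fewer cells of a type and less RNA per cell cannot be told apart. What the controls received, the mosquitoes' age, the hours after the blood meal and the number of females per library are not stated in the labels. It is also not stated that the 3 libraries of a group came from separate mosquitoes, so p-values measure the spread between these libraries, which may be technical.

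In translation, initiation factor eIF2 carries the initiator tRNA to the small ribosomal subunit, eIF3 binds that subunit and helps recruit mRNA, and the cap-binding complex of eIF4E, eIF4G and the helicase eIF4A brings the mRNA in, aided by poly(A)-binding protein on its tail. Elongation factors eEF1 and eEF2 then deliver charged tRNAs and move the ribosome along, and release factors end the chain. Aminoacyl-tRNA ligases charge each tRNA with its amino acid, with separate enzymes for the cytoplasm and, for most amino acids, the mitochondrion. In mosquitoes, nurse cells make and load the egg with mRNA and ribosomes, and amino acids from a blood meal act through TOR signalling, which also regulates translation.

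Depth was 15719412 to 16465531 estimated counts per library, and the 149 genes took 4.14%, 4.09% and 4.19% of them in overexpression libraries 1, 2 and 3, and 4.13%, 4.08% and 4.07% in control libraries 1, 2 and 3. No 2 libraries agreed within sampling noise, with a chi-square per degree of freedom of 4.24 to 7.28 over genes with whole-number estimates, so none was treated as a repeat of another. For the ovary label, 32 germline genes such as vasa and aubergine summed to 7569 ± 84.8 CPM with overexpression and 7665 ± 201 CPM in controls (SD, n = 3 each; CPM, counts scaled to library size and by TMM, the trimmed mean of M-values). Sums of marker genes for 2 other tissues differed by library or by group. The 69 muscle genes summed to 2512, 2597 and 2616 CPM in overexpression libraries 1, 2 and 3, all below the 2720, 2714 and 2710 CPM in control libraries 1, 2 and 3. The 18 fat body genes summed to 60.1, 10.1 and 8.996 CPM with overexpression, against 11.5, 9.34 and 13.02 CPM in controls, which sets overexpression library 1 apart. Among them are the vitellogenin-A1 genes LOC109413685, LOC109413693 and LOC109413684. Their group means were 4.26, 6.70 and 6.39 CPM with overexpression, in that order of genes. The control means of the same genes were 1.21, 1.12 and 0.145 CPM. The list sum was high in overexpression library 1 alone, so these means are not read as a difference between the groups. The other genes of the list differed little in group mean: apolipophorins averaged 5.25 CPM with overexpression and 4.82 CPM in controls. No hexamerin gene averaged above 1.64 CPM in either group. Eggshell genes summed to 6466 CPM with overexpression and 6390 CPM in controls. Most of that came from the chorion peroxidase LOC109399008, at 4187 and 4100 CPM in that order, and no vitelline membrane gene averaged above 12.7 CPM. Hemocyte-type genes summed to 673 CPM with overexpression and 678 CPM in controls, nearly all from rows described as phenoloxidase-activating factors. The phenoloxidases themselves averaged at most 1.75 CPM and the peroxidasins at most 7.92 CPM, so that sum says little about hemocytes. The part of these tissues in the values below was not tested.

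No translation factor or tRNA ligase passed an adjusted p of 0.05 with overexpression of Aalpi18529. Of the 149 genes, 145 had enough counts to be tested with edgeR's quasi-likelihood test, and 0 passed, beside 0.0129% of the 15540 genes tested in the whole table. DESeq2's Wald test also called 0 of 149, beside 0.0652% of the genes to which it gave an adjusted p. At an unadjusted p under 0.05 by edgeR there were 5 (3.45%), 2 higher and 3 lower with overexpression, beside 4.92% of all genes tested (2.42% higher and 2.5% lower). In 13 genes (8.97%) the 2 groups did not overlap, 9 higher and 4 lower with overexpression, beside 10.3% of all genes tested (5.21% higher and 5.13% lower). Both shares lay near or under the background, so neither is a result about these genes. The count at an unadjusted p under 0.05 depended on single libraries: by edgeR it was 11 (7.59%) without overexpression library 2, beside 5.25% of all genes tested in that fit. Without overexpression library 1 it was 4, beside 4.47% of all genes tested in that fit.

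The log2 fold changes, overexpression minus control, had a median of 0.0095 over the 145 genes and of 0.0013 over all genes tested. They lay between -0.25 and 0.29 for the middle 90% of the 145, and between -0.39 and 0.39 for the middle 90% of all genes tested. The genes here were also more deeply read, with a median of 97.8 CPM against 21.4 CPM over all genes tested, and low counts widen fold changes. Among genes of at least 20 CPM the median size of the log2 fold change was 0.046 for 116 of these genes and 0.062 for all 7999. For 124 of the 145 genes (85.5%) the 95% interval of the fold change, taken gene by gene with no adjustment, lay within 1.5-fold in either direction, and for 137 it lay within 2-fold. For the 116 genes of at least 20 CPM the median half-width of that interval was 0.16 on the log2 scale.

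**Figure D1:**
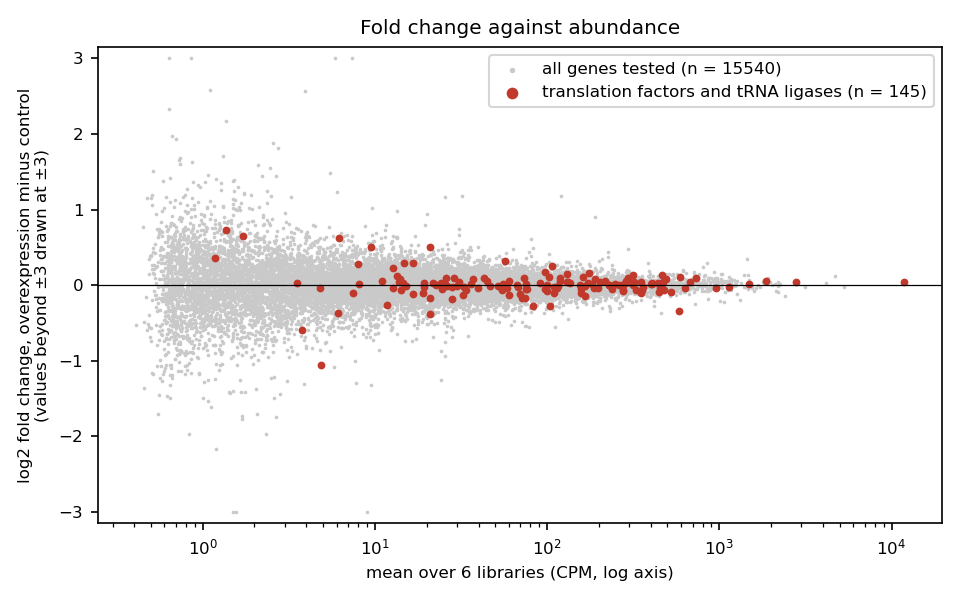
Log2 fold change, overexpression minus control, against mean CPM on a log axis for all 15540 genes tested (grey) and the 145 translation factors and tRNA ligases tested (red). Most red points lie close to 0, and the widest scatter is at low CPM.

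The genes fell into 13 classes by description, and the summed CPM of every class overlapped between the groups. Class sums with overexpression stood between 96.4% of the control mean, for the eIF2-alpha kinases, and 104% for the partners of poly(A)-binding protein. The median log2 fold change of a class lay within 0.06 of 0 in 12 of the 13, and the exception, eEF2, is a class of 2 genes with a median of -0.15. Overexpression library 3 was the highest of the 6 libraries in 6 of the 13 class sums, and overexpression library 2 the lowest in 6.

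**Figure D2:**
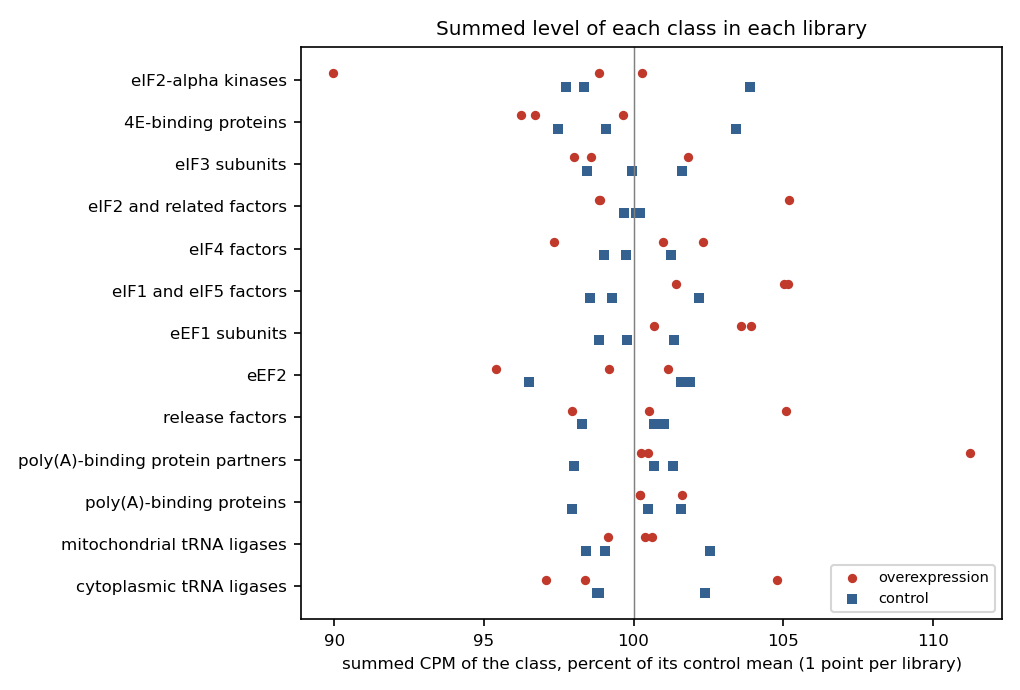
Summed CPM of each of the 13 classes in each library, as a percent of the class's control mean (circles for the 3 overexpression libraries, squares for the 3 controls). In every class the 2 sets of points overlap.

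Among initiation factors, eIF2 and its relatives are described first. The alpha subunit of eIF2, the target of stress kinases, had a single gene, LOC109415956, with 279.6, 289.8 and 275 CPM in overexpression libraries 1, 2 and 3, against 282, 273 and 278 CPM in control libraries 1, 2 and 3. Its log2 fold change was 0.022 ± 0.046 (SE; 95% interval -0.084 to 0.13). This gene was chosen after its values were seen, as the substrate of the kinases below. The beta subunit (subunit 2) gene that took the most reads of the class, LOC109400677 (scaffold NW_021838576.1, positions 21149665 to 21151729), stood at 359 ± 27.4 CPM with overexpression and 347 ± 13.4 CPM in controls (SD, n = 3 each), and its overexpression library 3 was the highest of the 6. The 9 genes of the class summed to 1632 ± 59.2 CPM with overexpression and 1617 ± 4.52 CPM in controls (SD, n = 3 each), and their log2 fold changes ran from -0.17 to 0.29. In 1 of 2 genes for eIF2A (LOC109414155), named after its values were seen, all overexpression libraries exceeded all controls, at 217, 224 and 225 CPM with overexpression and 216, 213 and 209 CPM in controls (edgeR unadjusted p = 0.225). The other eIF2A gene, LOC115254465, took on average 23.1% of the reads of the 2 with overexpression and 26.1% in controls. Together they came to 289 ± 6.79 CPM with overexpression and 288 ± 10.1 CPM in controls, and the groups overlapped. One of 2 genes for eIF2D, a factor that can place tRNA without eIF2 in mammals, LOC115269254, had 14.8, 18.2 and 15.98 CPM in overexpression libraries 1, 2 and 3, against 12.99, 15.1 and 12.1 CPM in control libraries 1, 2 and 3. The groups overlapped there, the log2 fold change was 0.29 ± 0.14 (SE) and the unadjusted p was 0.0682 by edgeR. LOC109410619, the other eIF2D gene, took most of the reads of the 2. Together they came to 51.4, 53.7 and 58.99 CPM with overexpression and 50.04, 51.5 and 47.5 CPM in controls, and the groups overlapped. Fitted as 1 feature, the sum had a log2 fold change of 0.14 ± 0.072 (SE; edgeR unadjusted p = 0.0825).

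Kinases that phosphorylate eIF2-alpha lower initiation during stress. The gene described as kinase 1, LOC109432321, had 29.3, 34.3 and 25.7 CPM in overexpression libraries 1, 2 and 3, against 28.5, 27.6 and 27.3 CPM in control libraries 1, 2 and 3, and the controls all lay inside the range of the overexpression libraries. LOC109418329 had 60.5, 66.5 and 73.5 CPM with overexpression and 65.1, 77.7 and 73.96 CPM in controls. LOC109427298, which took the most reads of the class, had 69.99, 74.8 and 78.9 CPM with overexpression and 81.1, 79.1 and 72.4 CPM in controls. Their log2 fold changes were 0.10, -0.11 and -0.057 in that order, with unadjusted p-values of 0.419, 0.271 and 0.471 by edgeR. The groups overlapped in all 3 genes. A further kinase of this kind, GCN2 (LOC109397123), which senses uncharged tRNA, carries a different description and belongs to the wider list given below; it averaged 92.5 CPM with overexpression and 94.98 CPM in controls.

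The 25 genes for eIF3 subunits, 24 of them tested, summed to 4211 ± 87.5 CPM with overexpression and 4234 ± 66.9 CPM in controls (SD, n = 3 each). Of the 24, 15 had a log2 fold change above 0 and 9 below, with a median of 0.021. The single gene with most reads, for subunit B (LOC109433182, scaffold NW_021838909.1, positions 81204217 to 81208140), part of the core of eIF3, had 459.9, 469 and 466 CPM in overexpression libraries 1, 2 and 3, against 486, 489.8 and 481 CPM in control libraries 1, 2 and 3. All 3 overexpression libraries lay below all 3 controls, the one eIF3 gene of which this was true, beside 5.13% of all genes tested. The log2 fold change was -0.063 ± 0.041 (SE) and the unadjusted p 0.157 by edgeR. The largest fold change of the class was that of a subunit K gene, LOC109621796, at 0.51 with an SE of 0.49 where control library 2 stood far below the other 5 libraries. The gene, chosen with its values known, had 25.8, 16.3 and 31.4 CPM in overexpression libraries 1, 2 and 3, against 23.99, 4.95 and 22.7 CPM in control libraries 1, 2 and 3.

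The eIF4 factors recognise the cap and unwind the leader. The 21 genes of the class, 20 tested, summed to 4918 ± 126 CPM with overexpression and 4907 ± 55.9 CPM in controls (SD, n = 3 each). The gene for eIF4A with most reads, LOC115266377 (scaffold NW_021838233.1, positions 18635252 to 18666303), stood at 1134 ± 45.04 CPM with overexpression and 1154 ± 64.9 CPM in controls (SD, n = 3 each), with a log2 fold change of -0.025 ± 0.054 (SE). LOC109403312, a gene for eIF4H, a helper of eIF4A, had 191, 171 and 198 CPM in overexpression libraries 1, 2 and 3, against 171, 177 and 149 CPM in control libraries 1, 2 and 3 (edgeR unadjusted p = 0.0771). Its description partner LOC109406517 had 142, 179 and 151 CPM with overexpression and 172, 167 and 182 CPM in controls, in the opposite direction, and the 2 together came to 344 ± 9.34 CPM with overexpression and 339.6 ± 6.98 CPM in controls. The gene described as eIF4 gamma-like, LOC109401410, had 2.31, 1.92 and 2.05 CPM in overexpression libraries 1, 2 and 3, against 1.19, 1.81 and 0.978 CPM in control libraries 1, 2 and 3, so that the groups did not overlap. Its log2 fold change was 0.65 ± 0.30 (SE; edgeR unadjusted p = 0.0625). LOC115257192 has the same description. The 2 together came to 4.75, 2.76 and 3.89 CPM with overexpression and 1.69, 3.46 and 1.86 CPM in controls, and those groups overlapped. For eIF4E type 2 (LOC109430360), a cap-binding protein also named after its values were seen, the values were 127, 121 and 122 CPM with overexpression and 117, 109.8 and 119 CPM in controls, the overexpression libraries all higher (edgeR unadjusted p = 0.121). The largest fold change among all 145 genes, -1.06 with an SE of 0.67, was that of LOC115256192, a gene of few counts for eIF4A-III, a helicase of the exon junction complex rather than of initiation. It was named after its values were seen, and had 3.58, 0.261 and 5.66 CPM in overexpression libraries 1, 2 and 3, against 5.86, 6.23 and 7.72 CPM in control libraries 1, 2 and 3. All overexpression libraries lay below all controls, and overexpression library 2 stood near 0, while the 4 rows described as eIF4A-III summed to 123 ± 1.602 CPM with overexpression and 122 ± 1.97 CPM in controls.

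Proteins described as binding eIF4E made up 4 genes, none of which passed the test, and the groups overlapped in each. The 2 genes for 4E-BP1, the TOR target, were LOC109420252 (scaffold NW_021837046.1, positions 1442837 to 1453725) and LOC109433086. LOC109420252 had 75.9, 66.97 and 78.2 CPM in overexpression libraries 1, 2 and 3, against 82.7, 65.7 and 80.9 CPM in control libraries 1, 2 and 3, and LOC109433086 had 48.7, 42.5 and 48.8 CPM with overexpression and 51.1, 42.8 and 46.7 CPM in controls. In both genes the second library of each group was the lowest of its group. Mextli, which binds eIF4E together with eIF3 in Drosophila germline stem cells, also had 2 genes. LOC109411691 stood at 31.1 ± 6.51 CPM with overexpression and 33.9 ± 3.23 CPM in controls, and LOC109404617 at 116 ± 1.81 CPM with overexpression and 117 ± 15.01 CPM in controls (SD, n = 3 each). The 4 log2 fold changes ran from -0.12 to -0.0072, and the widest of their 95% intervals was -0.47 to 0.23.

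The start-site and subunit-joining factors eIF1, eIF1A, eIF5 and eIF5B, together with eIF5A, formed a class of 8 genes. The 8 genes summed to 3393, 3273 and 3389 CPM in overexpression libraries 1, 2 and 3, against 3297, 3179 and 3203 CPM in control libraries 1, 2 and 3. The 2 highest values were overexpression libraries 1 and 3, but overexpression library 2 lay below control library 1. Most of these reads came from eIF5A, a factor that helps the ribosome through stalling sequences (LOC109399093, scaffold NW_021838465.1, positions 39791232 to 39824902), with 1940, 1818 and 1928 CPM in overexpression libraries 1, 2 and 3, against 1864, 1776 and 1821 CPM in control libraries 1, 2 and 3. Its log2 fold change was 0.058 ± 0.042 (SE; edgeR unadjusted p = 0.200). In 3 of the 8 genes all overexpression libraries exceeded all controls, beside 5.21% of all genes tested, and a class this small allows no reading of that count. These were eIF1 (LOC109425666) at 514, 497 and 493 CPM with overexpression and 475, 460.5 and 486 CPM in controls, eIF1A (LOC109411708) at 306, 299 and 309 CPM with overexpression and 298, 261 and 296 CPM in controls, and 1 eIF5 gene; the first 2 were named after their values were seen. Their log2 fold changes were 0.082 ± 0.044 and 0.10 ± 0.061 (SE), with unadjusted p-values of 0.0992 and 0.152 by edgeR.

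The eIF5 gene, LOC109399541 (scaffold NW_021837931.1, positions 1500460 to 1534193), whose product triggers GTP hydrolysis by eIF2, was 1 of the 5 genes at an unadjusted p under 0.05. It had 103, 99.6 and 109 CPM in overexpression libraries 1, 2 and 3, against 90.2, 97.97 and 86.99 CPM in control libraries 1, 2 and 3. The log2 fold change was 0.18 ± 0.069 (SE; edgeR unadjusted p = 0.0300, adjusted p = 0.963). Another eIF5 gene, LOC109405394, had 68.3, 84.2 and 73.1 CPM with overexpression and 83.9, 107 and 80.5 CPM in controls, a log2 fold change of -0.27 ± 0.12 (SE; edgeR unadjusted p = 0.0604). The 3 genes described as eIF5 summed to 470.0 ± 19.3 CPM with overexpression and 463 ± 41.1 CPM in controls (SD, n = 3 each). Fitted as 1 feature, the sum had a log2 fold change of 0.022 ± 0.064 (SE).

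**Figure D3:**
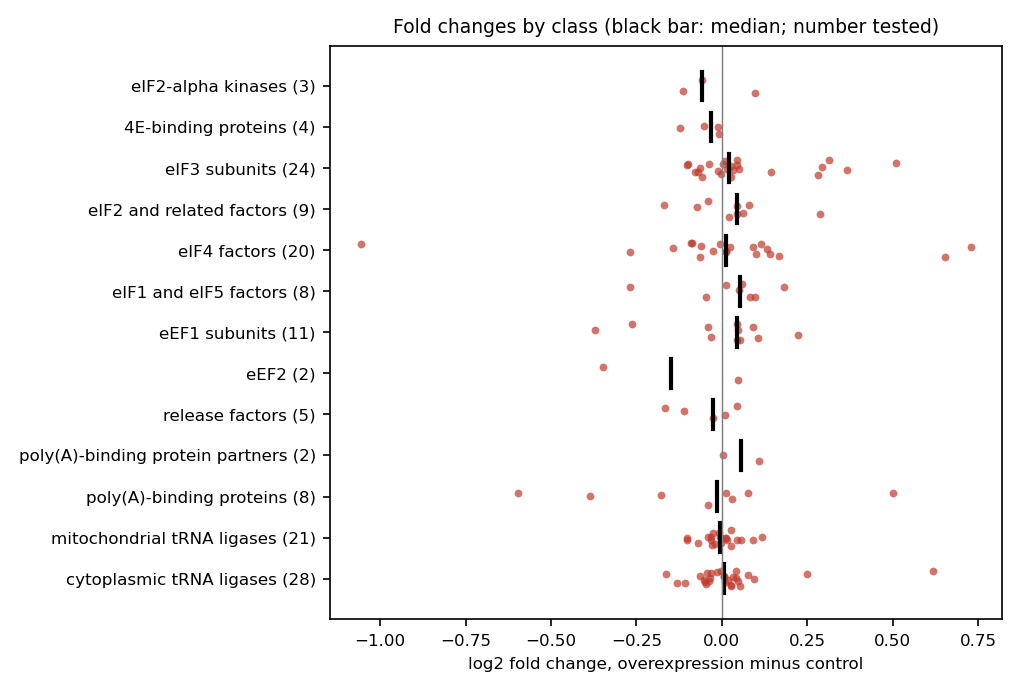
Log2 fold change, overexpression minus control, of each of the 145 genes tested, by class, with the class median as a black bar and the number tested in brackets. The tRNA ligases lie in a narrow band around 0, and the points beyond 0.5 in size belong to eIF4 factors, poly(A)-binding proteins, 1 eIF3 gene and 1 valine ligase gene.

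Poly(A)-binding proteins coat the mRNA tail and link it to the cap complex, and 3 of their 8 genes had an unadjusted p under 0.05 by edgeR, beside 4.92% of all genes tested. Those 3 went in both directions, and the class is too small for its count to be read. Nearly all reads of the cytoplasmic kind went to LOC109425762 (scaffold NW_021837378.1, positions 54924507 to 54934555), with 1486, 1503 and 1493 CPM in overexpression libraries 1, 2 and 3, against 1517, 1494 and 1438 CPM in control libraries 1, 2 and 3. Its log2 fold change was 0.011 ± 0.038 (SE; 95% interval -0.076 to 0.10). A gene on the same scaffold, LOC109407505 (scaffold NW_021837378.1, positions 54863379 to 54882108), carries the same description. It had 29.2, 35.3 and 14.5 CPM with overexpression and 24.8, 28.8 and 35.6 CPM in controls. Overexpression library 3 was its lowest, and there LOC109425762 took 99.04% of the reads of the 2 genes, its highest share. The nuclear protein, poly(A)-binding protein 2 (LOC109405147), stood at 447 ± 11.6 CPM with overexpression and 437 ± 5.23 CPM in controls (SD, n = 3 each).

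The 3 genes at an unadjusted p under 0.05 all had few counts. LOC109398818 (scaffold NW_021838723.1, positions 305939 to 306752) had 13.4, 10.3 and 9.901 CPM in overexpression libraries 1, 2 and 3, against 8.91, 6.52 and 8.29 CPM in control libraries 1, 2 and 3, the overexpression libraries all above the controls. LOC109417355 (scaffold NW_021837267.1, positions 21519807 to 21520708), which has the same description, had 17.97, 21.4 and 14.6 CPM in overexpression libraries 1, 2 and 3, against 23.7, 21.6 and 25.3 CPM in control libraries 1, 2 and 3, the overexpression libraries all below the controls. Their log2 fold changes were 0.50 ± 0.18 and -0.39 ± 0.15 (SE), with unadjusted p-values of 0.0244 and 0.0310 and an adjusted p of 0.963 for both by edgeR. They went in opposite directions, and together they came to 29.2 ± 4.04 CPM with overexpression and 31.5 ± 2.93 CPM in controls. Their annotated spans are 814 and 902 bases, as those of LOC109430796 and LOC109424118 are 846 each, where the other 4 genes of the class span 10049 to 19256.

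LOC109407548, described as poly(A)-binding protein 1, had 2.303, 4.14 and 2.63 CPM in overexpression libraries 1, 2 and 3, against 4.85, 4.09 and 4.78 CPM in control libraries 1, 2 and 3. Control library 2, its lowest control, lay just under overexpression library 2, so the groups overlapped by 1 library. The log2 fold change was -0.60 ± 0.26 (SE; edgeR unadjusted p = 0.0476). The other genes of that description, LOC109430796 and LOC109424118, stood at 12.6 ± 2.401 CPM with overexpression and 13.02 ± 1.21 CPM in controls and at 14.4 ± 2.83 CPM with overexpression and 13.7 ± 0.508 CPM in controls, in that order (SD, n = 3 each). The 8 poly(A)-binding protein genes summed to 2027 ± 16.4 CPM with overexpression and 2013 ± 37.7 CPM in controls. Of the 2 genes for the interacting protein 2, an inhibitor of poly(A)-binding protein, LOC109425322 had 112, 101 and 106 CPM with overexpression and 98.02, 99.7 and 98.7 CPM in controls. All overexpression libraries exceeded all controls there, with a log2 fold change of 0.11 ± 0.06 (SE; edgeR unadjusted p = 0.107). The other gene, LOC115259477, had a log2 fold change of 0.0036. Together the 2 genes came to 206 ± 12.5 CPM with overexpression and 198 ± 3.50 CPM in controls, and the groups overlapped.

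Elongation factor 1-alpha, which brings charged tRNAs to the ribosome, took the most counts of the set, not scaled by length. LOC109418072 (scaffold NW_021838153.1, positions 104410779 to 104414120) had 12035, 11723 and 12043 CPM in overexpression libraries 1, 2 and 3, against 11749, 11570 and 11421 CPM in control libraries 1, 2 and 3. Overexpression library 2 lay just under control library 1 and above the other 2 controls. The log2 fold change was 0.043 ± 0.03 (SE; 95% interval -0.025 to 0.11) and the unadjusted p was 0.182 by edgeR. The table lists 4 genes under this description, and LOC109418072 held 99.7% to 99.8% of their reads in every library. The exchange and scaffold subunits of eEF1 (beta, gamma, delta and the tRNA-ligase-complex protein epsilon-1) filled the other 8 genes of the class, and the class of 12 summed to 14945 ± 259 CPM with overexpression and 14546 ± 183 CPM in controls (SD, n = 3 each).

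Elongation factor 2, the GTPase that moves the ribosome on by a codon, had 2 genes, 1 of which had the smallest p-value of all 145. LOC109408551 (scaffold NW_021838031.1, positions 30548 to 36727) had 486, 469 and 578 CPM in overexpression libraries 1, 2 and 3, against 689.8, 588 and 672 CPM in control libraries 1, 2 and 3. All 3 overexpression libraries lay below all 3 controls. The log2 fold change was -0.35 ± 0.09 (SE), to 78.6% of the control mean, with an unadjusted p of 0.00459 and an adjusted p of 0.963 by edgeR, and an adjusted p of 0.290 by DESeq2. It ranked 57 among the 15540 genes by unadjusted p. The other eEF2 gene, LOC109429586 (scaffold NW_021837378.1, positions 8414285 to 8420908), had 2869, 2758 and 2843 CPM in overexpression libraries 1, 2 and 3, against 2747, 2858 and 2592 CPM in control libraries 1, 2 and 3, with a log2 fold change of 0.047 ± 0.045 (SE). The reads of the 2 together came to 3355, 3227 and 3421 CPM in overexpression libraries 1, 2 and 3, and 3436, 3447 and 3264 CPM in control libraries 1, 2 and 3. Fitted as 1 feature, eEF2 had a log2 fold change of -0.02 ± 0.036 (SE; edgeR unadjusted p = 0.591). The share of eEF2 reads given to LOC109408551 was 14.5, 14.5 and 16.9% in overexpression libraries 1, 2 and 3 and 20.1, 17.1 and 20.6% in control libraries 1, 2 and 3.

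Release factor 1, which reads the stop codon, had most of its reads in LOC109407899 (scaffold NW_021837489.1, positions 41316623 to 41368435), at 476 ± 21.04 CPM with overexpression and 462 ± 8.41 CPM in controls (SD, n = 3 each), with a log2 fold change of 0.046 ± 0.048 (SE). The 5 release factor genes, with the GTPase eRF3 as the other kind, summed to 1025 ± 36.6 CPM with overexpression and 1013 ± 15.2 CPM in controls, and the groups overlapped in each gene.

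The cytoplasmic tRNA ligases showed no difference past the test. They comprise 28 genes that are labelled cytoplasmic or carry no compartment, for 19 amino acids, and include Slimp, a seryl-tRNA synthetase relative that works in mitochondria in Drosophila. All 28 were tested. Of these 15 had a log2 fold change above 0 and 13 below, with a median of 0.0069, and 27 lay within 0.25 of 0. In no single gene did the groups separate, beside 10.3% of all genes tested. None had an unadjusted p under 0.05 by edgeR, beside 4.92%. The class summed to 4726, 4663 and 5034 CPM in overexpression libraries 1, 2 and 3, against 4748, 4919 and 4744 CPM in control libraries 1, 2 and 3. Overexpression library 3 was the highest, and it was the highest of the 6 libraries in 12 of the 28 genes (42.9%), beside 15.8% of all genes tested. The gene with most reads, for isoleucine (LOC109411781, scaffold NW_021837045.1, positions 119817999 to 119826133), had 609, 593 and 673 CPM in overexpression libraries 1, 2 and 3, against 629.6, 678 and 617 CPM in control libraries 1, 2 and 3. Control library 2 was its highest, with overexpression library 3 next, and a log2 fold change of -0.039 ± 0.062 (SE). The exception to the narrow range was LOC115270088, the least-read of 4 valine ligase genes, with 11.1, 6.11 and 5.22 CPM in overexpression libraries 1, 2 and 3, against 4.32, 4.18 and 6.12 CPM in control libraries 1, 2 and 3. Its log2 fold change was 0.62 ± 0.31 (SE; edgeR unadjusted p = 0.0785), and overexpression library 1 alone stood high. When genes of one description were summed, the groups separated for 2 of 20 descriptions, beside 10.8% of 9703 sums over the whole table. Both enzymes were named after their values were seen. The asparagine enzyme had 304, 308 and 317 CPM with overexpression and 293, 297 and 299 CPM in controls (edgeR unadjusted p = 0.110). The bifunctional glutamate/proline enzyme had 226, 241 and 241 CPM with overexpression and 248, 247 and 244 CPM in controls (edgeR unadjusted p = 0.182). The 4 valine genes together came to 318 ± 9.32 CPM with overexpression and 327 ± 12.7 CPM in controls.

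The 22 mitochondrial tRNA ligase genes, for 14 amino acids, also had none past the test. Of the 21 tested, 9 had a log2 fold change above 0 and 12 below, with a median of -0.0066 and a range of -0.10 to 0.12. Their sum was 577, 586 and 584 CPM in overexpression libraries 1, 2 and 3, against 573, 577 and 597 CPM in control libraries 1, 2 and 3. The gene with most reads, for asparagine (LOC109428033, scaffold NW_021837045.1, positions 5737100 to 5738736), had 63.7, 71.1 and 66.3 CPM in overexpression libraries 1, 2 and 3, against 66.99, 68.4 and 69.96 CPM in control libraries 1, 2 and 3, with a log2 fold change of -0.03 ± 0.068 (SE). In 1 gene of the 21 tested the groups did not overlap, beside 10.3% of all genes tested. It was the serine ligase LOC109415627, named after its values were seen, with 43.6, 43.7 and 45.9 CPM in overexpression libraries 1, 2 and 3, against 41.2, 41.98 and 41.9 CPM in control libraries 1, 2 and 3. Its log2 fold change was 0.092 ± 0.068 (SE; edgeR unadjusted p = 0.214). Whether mitochondrial and cytoplasmic ligases differed in their response was not tested.

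**Figure D4:**
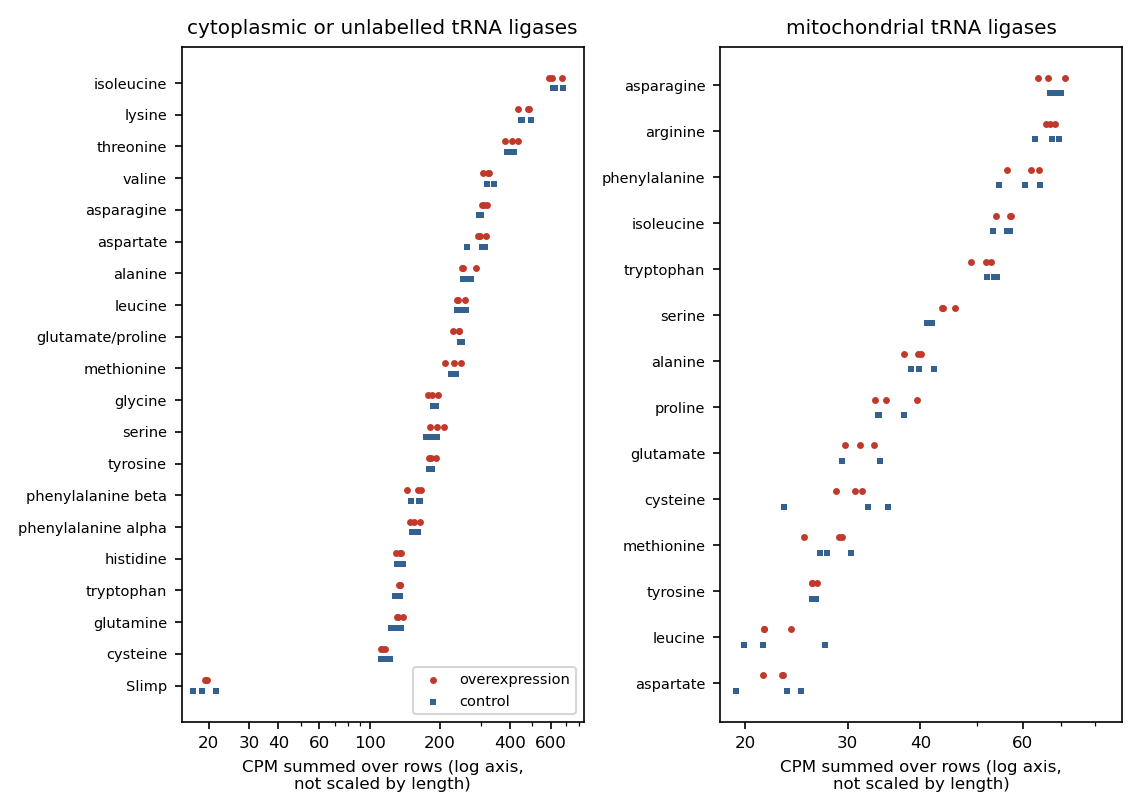
CPM of each tRNA ligase in each library, summed over rows of one description, on log axes and not scaled by length (circles for the 3 overexpression libraries, squares for the 3 controls; left, cytoplasmic or unlabelled enzymes; right, mitochondrial enzymes). The groups overlap except in the asparagine enzyme (higher with overexpression) and the glutamate/proline enzyme (lower) on the left, and the serine enzyme (higher) on the right.

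Other genes of the pathway were taken from a list of descriptions outside the rule. The 32 genes cover mitochondrial initiation and elongation factors, ribosome recycling and rescue factors, the scaffold proteins of the tRNA ligase complex, GCN1 and GCN2, and the reinitiation proteins. Of the 28 tested, 17 had a log2 fold change above 0 and 11 below, with a median of 0.05. None passed an adjusted p of 0.05 by edgeR or DESeq2. Of these, 2 had an unadjusted p under 0.05 by edgeR, 1 higher and 1 lower with overexpression, beside 4.92% of all genes tested, and both were mitochondrial factors of few counts. These were a gene described as initiation factor IF-2 (LOC109411045), at 3.29 CPM with overexpression and 1.78 CPM in controls, and ribosome-recycling factor (LOC109408032), at 1.56 CPM with overexpression and 2.49 CPM in controls. They were named after their values were seen.

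Many of these genes stand in the table as several rows under one description. The 149 genes carry 83 distinct descriptions once the ending -like is removed, and 46 of those are shared by several rows, 112 rows in all. All 37 genes with a description of their own had whole-number estimates in all 6 libraries, against 8 of the 112 genes that share one, counting a value as whole within 0.001. In 39 of the 46 shared descriptions exactly 1 row has a gene ID that is also in RefSeq's gene table for the newer AalbF5 assembly, and 36 of the 37 unshared genes have one. Over all 149 genes the IDs of 90 (60.4%) were matched there, and of all rows with values 54.2%. An unmatched ID may have been merged, renamed or dropped.

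Sums over such rows varied less between libraries than the rows did. In the 46 shared descriptions, the median coefficient of variation within a group was 9.26% for single rows of at least 1 CPM and 3.60% for the sums. Summing narrows the spread of independent values too. In 29 of the 46 (63%) the SD of the sum fell under that of independent rows, beside 62.7% of 3329 other descriptions shared by several rows, so this trait is not particular to the set. The clearest example, chosen after its values were seen, was eIF4B, an activator of eIF4A. Its genes LOC109414697 and LOC109401877 had 365, 482 and 609.8 CPM with overexpression and 449, 401 and 472 CPM in controls for the first, and 533, 401 and 357 CPM with overexpression and 454, 495 and 427 CPM in controls for the second. In overexpression libraries 1 to 3 the gene with the larger count is in turn the second, the first and the first. The sum was 899, 884 and 967 CPM in overexpression libraries 1, 2 and 3, against 903, 896 and 898 CPM in control libraries 1, 2 and 3. All 5 genes at an unadjusted p under 0.05 share a description with another row, and none of the sums they belong to had an unadjusted p under 0.05 by edgeR. Over all 83 sums tested, 0 had an unadjusted p under 0.05 (the smallest was 0.0528, for eIF1), beside 5.07% of 9703 sums over the whole table. None passed an adjusted p of 0.05, beside 0.0103%. On the scale of that fit, which has TMM factors of its own, the groups did not overlap in 9 of the 83, beside 10.8%. For 1 of the 9, eEF1-alpha, they overlapped in the CPM used elsewhere here, with 11750 CPM in overexpression library 2 and 11778 CPM in control library 1.

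**Figure D5:**
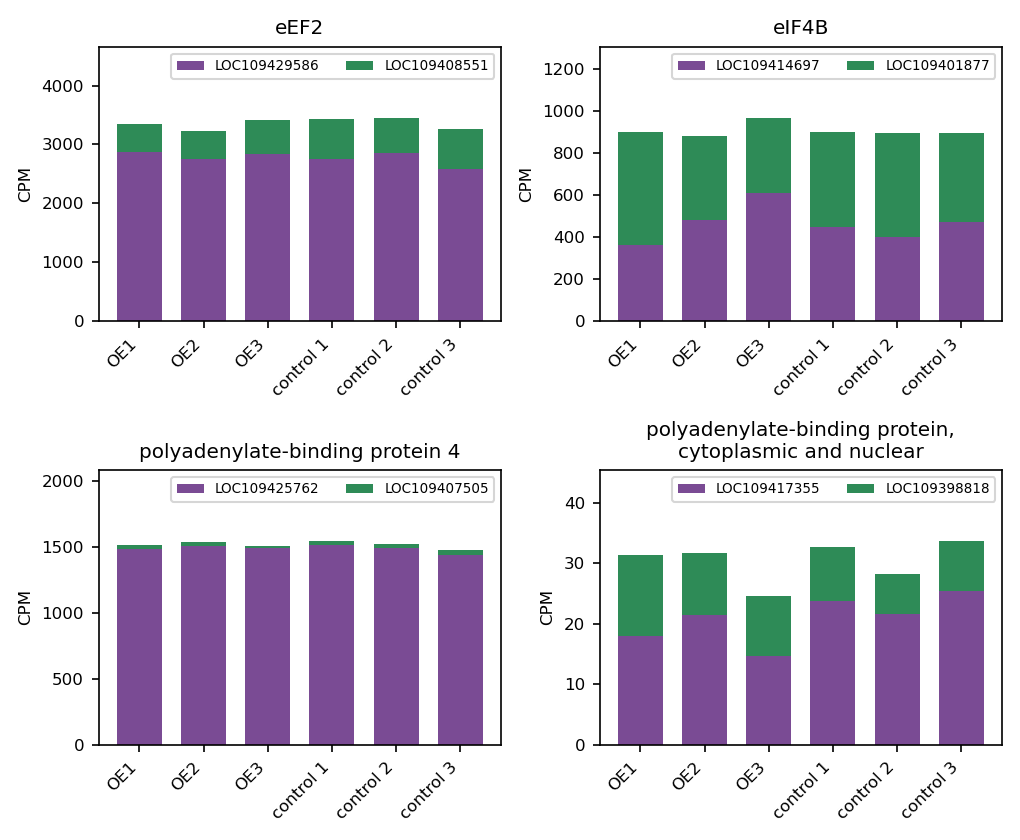
CPM of the rows that share a description, stacked by library, for eEF2, eIF4B and 2 kinds of poly(A)-binding protein (overexpression libraries OE1 to OE3 on the left, controls on the right; the 2 colours are the 2 genes). For eIF4B and eEF2 the total varies less between libraries than the split between the genes.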

How the data were processed

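The deposited table holds the authors' estimated counts for each gene, not scaled between libraries, with gene IDs, symbols, scaffold positions and descriptions. HISAT and Bowtie2 are named in the submitters' processing notes; no source used here gives the counting program, genome build or use of strand. No column of counts belonged to no sample (0 columns). Of 34479 rows, 10950 held no value and were not used.

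Estimated counts were rounded and tested as 1 table with edgeR 4.0.16 (R 4.3.3): filterByExpr defaults (15540 genes), TMM scaling, quasi-likelihood F test without covariates, Benjamini-Hochberg adjustment over all genes, limit 0.05. SE is |log2 fold change| over the root of F, and 95% intervals use the fit's degrees of freedom. CPM are not scaled by length, so levels of different genes are not compared. DESeq2 1.42.0 was an alternative. The procedure was tested on simulated counts. That simulation drew each gene independently, with no reads divided among rows of one description, so it is not used as support for the results here.

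The members, classes and lists were chosen with earlier results of these data known. Named genes were the most-read gene of each class, genes called by either tool, the 10 smallest p-values, the 2 largest separated changes per direction at 5 CPM or more, and all eIF2-alpha kinases, 4E-binding and poly(A)-binding proteins (32 in all). Others are marked as named after their values were seen, or stand beside a named gene of the same description. Replicate numbers did not pair the libraries (correlations are in the closing section). No protein or promoter sequence was used here.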

Additional observations from a re-analysis of the deposited data

How the results depend on the processing

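Of 444 values recomputed over 12 settings, 403 kept their direction and call (counts: within 1.5 times). 16 moved, and 25 changed direction, all among 32 single genes short of the limit. No translation gene was called in any of the 12. The number of all genes called was 2 in the reported fit, 15 with DESeq2, 1 with counts summed over one description and 0 with the replicate block. Members at an unadjusted p under 0.05 by edgeR numbered 5, and 0 when counts were summed. Leaving out 1 library gave 0 to 2 genes called and 4 to 11 members at an unadjusted p under 0.05 by edgeR. Without overexpression library 1 the number was 4, beside 4.47% of all genes tested in that fit, and the share beside the 11 is given above. Members whose groups did not overlap then numbered 25 to 35, beside 19.7% to 21.2% of all genes, since fewer libraries separate more often. By library, those 25 to 35 were 25, 35 and 31 without overexpression library 1, 2 or 3, and 28, 27 and 29 without control library 1, 2 or 3. As a share of the members tested, the count of 25 (of 146) lay under the share of all genes in its fit, 19.7%. The count of 35 lay over the range of those shares, and these differences were not tested. The median log2 fold change stayed between -0.00076 and 0.0137.

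Replicate numbers gave no pairing: same-numbered libraries' deviations had correlations of -0.012, 0.027 and 0.0061. With the replicate block, 6 members had an unadjusted p under 0.05 by edgeR, beside 4.59% of all genes, and 0 were called.

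When 1 library was left out, these log2 fold changes took both signs: LOC109411691 (-0.286 to 0.0181), LOC109424118 (-0.0248 to 0.233), LOC109428033 (-0.0751 to 0.0056), LOC109432321 (-0.0165 to 0.194), LOC109420252 (-0.149 to 0.0117), LOC109433086 (-0.0672 to 0.0609), LOC115266377 (-0.0693 to 0.0075), LOC109430796 (-0.207 to 0.0474), LOC109400677 (-0.0179 to 0.0824), LOC109407505 (-0.445 to 0.116), LOC109404617 (-0.0992 to 0.0889), LOC109411781 (-0.0947 to 0.00416), LOC109425762 (-0.0117 to 0.0295). When counts were summed over one description, the gene's value became that of the sum and changed sign for LOC115266377 (0.023), LOC109405394 (0.0217), LOC109429586 (-0.0201), LOC109424118 (-0.0536), LOC109407505 (0.00813), LOC109398818 (-0.106), LOC115270088 (-0.0395), since the row is then joined with its copies.

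Depth limits the genes under 20 CPM most, and 4 of the 149 were too low to test.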
